A study of Drosophila melanogaster with 9 samples.

Results

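The transcriptional response shared by larvae fed a lectin and larvae deprived of food was described by setting both treatments together against untreated controls. All 9 arrays of the series enter the comparison. The mean of the group means of the WGA arrays and the starvation arrays was compared with the 3 control arrays, and the common response was kept to probe sets that moved the same way in both treatments. Drosophila melanogaster larvae of the W1118 strain, a white-eyed laboratory stock, were used in every group and were taken in the third instar. Control larvae were labelled 120 h old, with titles that name a normal state and 12 h. WGA larvae were labelled 108 h (108 to 110 h for replicate 1) and spent 12 h on food with 1% wheat germ agglutinin (WGA), a plant lectin whose ligands include chitin. Starved larvae were labelled 108 h and spent 12 h without food. Each group has 3 biological replicates per the labels, and each array holds RNA of 50 pooled midguts.

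As background, the larval midgut is the main site of digestion and absorption in the fly, and its absorptive cells face the food across the peritrophic matrix, a sheet of chitin and chitin-binding proteins. Fasting lowers insulin and TOR signalling, which shifts cells from synthesis and storage towards autophagy and the use of reserves. Lectins that bind chitin attach to the peritrophic matrix and disturb feeding and digestion in insects. The comparison asks which transcripts a lectin diet and starvation moved alike.

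Values are log2 signals after quantile normalisation, which gives all arrays the same distribution, and changes are differences of these values (log2 scale). A change of 1 is a doubling of signal plus offset. Of 13966 probe sets, 9675 from 7905 genes were bright enough to be tested, and a probe set passed when limma's Benjamini-Hochberg adjusted p over all 9675 was under 0.05. Errors after ± are standard errors of the fit over all 9 arrays, unless named as an SD. The deposited signals summed to 976428 to 1367789 in controls, 1184145 to 1457246 with WGA and 909028 to 1277325 in starvation. Pearson r between arrays, across probe sets, was 0.907 to 0.950 within groups, 0.880 to 0.905 between WGA and starvation and 0.843 to 0.885 between treated and control arrays. No batch is given in the labels. A technical difference between groups, like the difference in labelled age, therefore cannot be told apart from the treatments. The number of arrays limits the precision. In bulk tissue, fewer cells of a type and less RNA per cell cannot be told apart.

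The pooled contrast passed for 1995 probe sets (20.6%), of which 79 moved opposite ways in the treatments and were set aside. The common response held the remaining 1916 probe sets, with 1041 rises from 893 genes (10.8% of all tested) and 875 falls from 764 genes (9.04%). The median change was 1.07 among the rises and -1.14 among the falls, against 0.02 over all tested probe sets. At least 2-fold changes were found for 584 rises and 521 falls, and at least 4-fold changes for 79 and 93. Among the rises 716 had all 6 treated arrays above all 3 controls, and among the falls 671 had all 6 below. Over all tested probe sets these patterns were seen in 870 (8.99%) and 859 (8.88%). The common members were brighter than the rest, with a median mean level of 5.74 for rises and 5.94 for falls against 3.96 over all tested probe sets.

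A stricter core of 919 probe sets passed in WGA and in starvation separately. It held 480 rises (418 genes, 4.96% of all tested) and 439 falls (377 genes, 4.54%). Both tests share the 3 control arrays, so the core is a count and no independent repeat. Among the 1916 common members, 618 passed only the WGA test, 300 only the starvation test and 79 neither, the last passing through the pooled contrast alone. WGA and starvation themselves differed, at an adjusted p under 0.05, for 498 of the 1916 members (26%) and for 1114 of all tested probe sets (11.5%). In the core, 182 of 919 differed (19.8%), and in 813 the treatments' changes lay less than 2-fold apart. The 95% interval of the difference lay wholly within 2-fold for 866 common members (45.2%), against 3060 of all tested probe sets (31.6%). It lay wholly beyond 2-fold for 109 common members, and for the remaining 941 it spanned the 2-fold mark, so that a difference of that size was neither shown nor bounded. The same-way rule bounds the difference by the pooled change, and common members were picked by a test and were brighter. The shares set beside all tested probe sets therefore describe the members and are no test of how alike the treatments were.

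**Figure D1:**
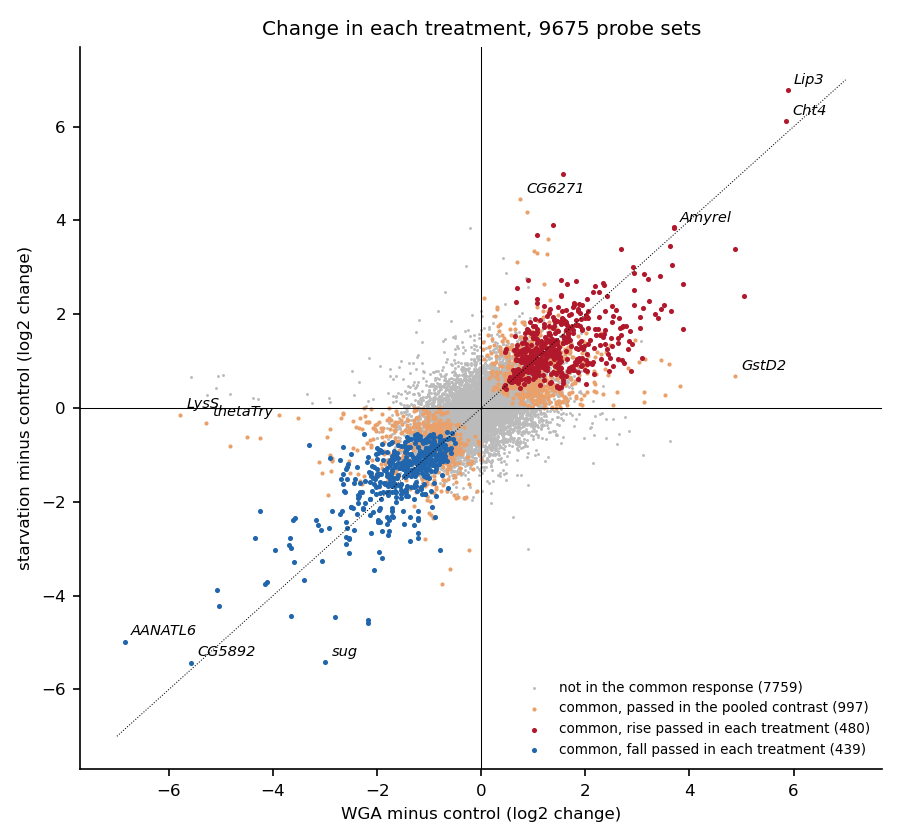
Each point is 1 of 9675 tested probe sets, with its log2 change in WGA on the horizontal axis and in starvation on the vertical axis, both against the same 3 controls. Red and blue mark the 480 rises and 439 falls that passed in each treatment, orange the other 997 common members, and the dotted line equal change; Lip3 and Cht4 lie at the upper right, while GstD2 and LysS lie along the horizontal axis.

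The largest common rises were led by hydrolases. Lip3, an acid lipase, read 2.81, 4.42 and 4.69 in controls, 10.10, 9.20 and 10.30 with WGA, and 10.91, 10.78 and 10.59 in starvation. Every treated array stood more than 4 log2 units above every control. Its pooled change was 6.34 ± 0.34 (80.9-fold, limma adjusted p = 5.96e-08), with 5.89 in WGA and 6.78 in starvation. Cht4, of the chitinase family, read 3.99, 4.73 and 3.37 in controls, 9.89, 9.55 and 10.22 with WGA, and 10.17, 10.23 and 10.05 in starvation. The treated groups overlapped each other and lay far from the controls. Cht4 rose by 5.99 ± 0.24 (63.3-fold, limma adjusted p = 3.47e-09), and the difference between the treatments was -0.26, with a 95% interval from -0.85 to 0.33. Cht9, of the same family, read 8.45, 8.32 and 7.90 in controls and 10.97 to 11.56 on the treated arrays, a rise of 2.99 ± 0.15.

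Amyrel, an amylase-related gene, was the most even of these genes. It read 7.15, 7.65 and 6.99 in controls, 11.12, 10.80 and 10.95 with WGA and 11.09, 11.07 and 11.14 in starvation. The 6 treated arrays fell within a range narrower than that of the 3 controls. Amyrel rose 13.6-fold (3.77 ± 0.14, limma adjusted p = 2.67e-09), with a 95% interval of -0.50 to 0.21 for WGA minus starvation.

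Other leading rises came from varied classes. Drs, which encodes the antifungal peptide drosomycin, read 3.61, 1.58 and 2.20 in controls, 8.58, 6.30 and 7.16 with WGA and 5.43, 6.66 and 5.49 in starvation, a rise of 4.14 ± 0.50. Sil1, a nucleotide exchange factor of the ER chaperone BiP, rose by 3.04 ± 0.26, from a control mean of 3.60 to 6.27 with WGA and 7.0 in starvation. dome, the receptor of the JAK-STAT pathway, rose by 2.98 ± 0.27. Its control arrays (1.73 to 2.35) lay under the filter level of 2.79, and the other tested probe set of dome gave -0.67. Further genes by the naming rule were CG34166 (3.78 ± 0.50), CG10562 (3.36 ± 0.21), CG32302 (3.13 ± 0.25) and Srg2 (2.91 ± 0.29). Control means of Drs, Srg2 and the named dome probe set lay below the filter level, so their folds depend on the offset.

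The largest common falls were led by CG5892 and AANATL6. CG5892 read 8.20, 8.54 and 9.37 in controls, 3.25, 3.28 and 2.88 with WGA, and 3.10, 3.56 and 3.16 in starvation. Both treated groups occupied the same narrow range. CG5892 fell 45.3-fold (-5.50 ± 0.26, limma adjusted p = 1.83e-08), and WGA minus starvation was -0.13, with a 95% interval from -0.77 to 0.50. AANATL6, an arylalkylamine N-acetyltransferase-like gene, read 9.76, 10.08 and 11.02 in controls, 2.05, 3.91 and 4.37 with WGA, and 3.95, 5.67 and 6.32 in starvation. It fell by 5.91 ± 0.53 on the log2 scale, and a further probe set of it gave -4.48. The treated arrays varied more among themselves here than for CG5892.

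sug (sugarbabe), a zinc finger transcription factor known for its induction by dietary sugar, read 6.76, 6.99 and 7.70 in controls, 4.08, 4.69 and 3.69 with WGA and 1.49, 1.75 and 1.96 in starvation. The groups formed 3 separate levels, and starvation lay under the filter level. Its pooled change was -4.21 ± 0.29 (limma adjusted p = 5.21e-07), and WGA stood 2.42 ± 0.33 above starvation (limma adjusted p = 0.000252). Alp4, an alkaline phosphatase, fell by 3.95 ± 0.33, and vanin-like, a relative of the pantetheinases, by 4.05 ± 0.47. Cyp4d14, a cytochrome P450, fell by 3.44 ± 0.32, from a control mean of 6.96. sbm, a transporter of amino acids, fell by 3.16 ± 0.34. CG18585 and CG7025 fell by 3.50 ± 0.17 and 3.33 ± 0.18, each from a control mean above 8. The others were CG15155 (-3.91 ± 0.37), Phyhd1 (-3.63 ± 0.29) and CG15253 (-3.31 ± 0.32), with at least 1 treated group below the filter level.

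**Figure D2:**
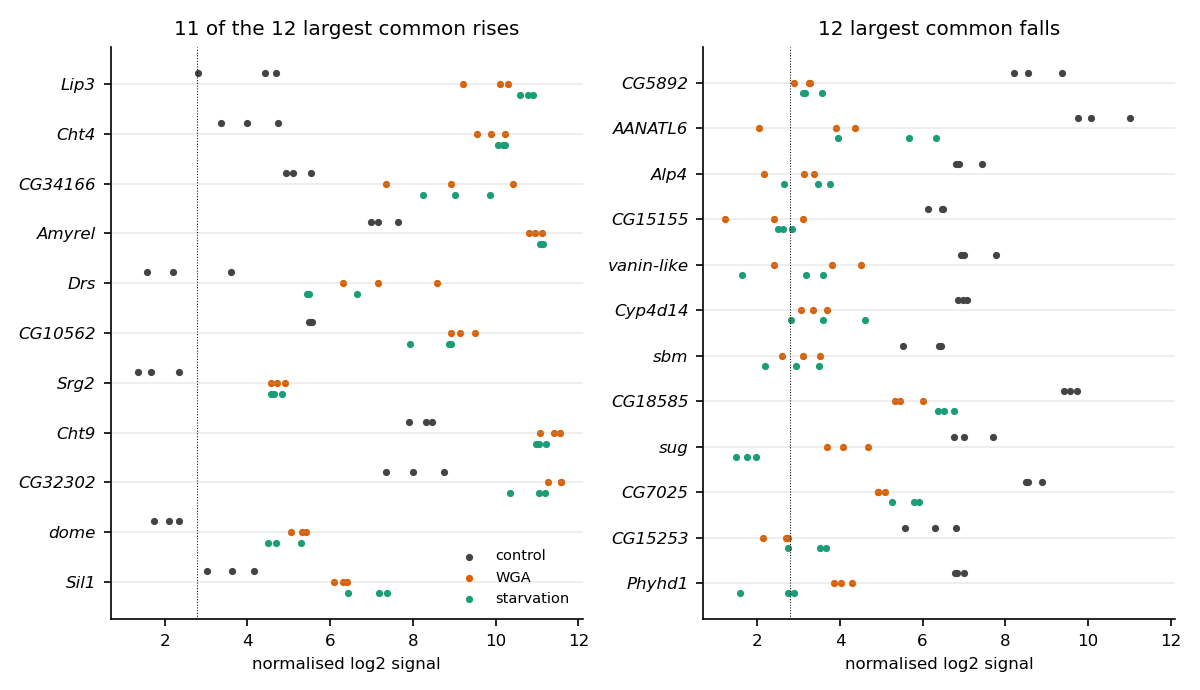
Normalised log2 signal (horizontal axis) of 11 of the 12 largest common rises (left) and the 12 largest falls (right) on each of the 9 arrays, with controls in grey, WGA in orange and starvation in green; the dotted line is the filter level of 2.79. No treated array overlaps a control array for any of the 23 genes, and in Lip3, Sil1, sug and Phyhd1 the WGA arrays lie between the other groups.

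Genes were then grouped by role. The counts below are over tested members, and each is read against the share of all tested probe sets that rose (10.8%) or fell (9.04%) in common. The most uniform group was oxidative phosphorylation, in which the inner-membrane complexes pass electrons to oxygen and use the proton gradient to make ATP. Of 42 nuclear-encoded subunits of respiratory complexes I to IV, 41 fell and none rose, and 40 of these also passed in each treatment. The group's median change was -1.30, with -1.31 in WGA and -1.24 in starvation, against 0.02 over all tested probe sets. Taken as the median over members against the control mean, the WGA arrays stood at -1.25, -1.35 and -1.41 and the starvation arrays at -0.97, -1.31 and -1.44. Controls stood at 0.20, 0.02 and -0.22, so the groups lay apart. No member differed between WGA and starvation at an adjusted p under 0.05, and for 41 of 42 the 95% interval of that difference lay within 2-fold. The exception among the falls was ND-B8, with -0.25 ± 0.58.

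All 4 complexes were represented. ND-15, of complex I, fell by 1.85 ± 0.17, SdhC, of succinate dehydrogenase, by 1.75 ± 0.16, and COX5A, of cytochrome c oxidase, by 1.72 ± 0.12. ox, a small subunit of complex III, read 11.88, 11.68 and 11.38 in controls, 9.55, 9.41 and 9.25 with WGA, and 9.76, 9.53 and 9.57 in starvation. It fell 4.38-fold (-2.13 ± 0.13), and a further probe set gave -2.21. Of 13 ATP synthase subunits 12 fell, all of them in each treatment, with a median of -1.36. sun, the epsilon subunit, fell by 2.33 ± 0.23, ATPsynO by 1.83 ± 0.14 and the catalytic ATPsynbeta by 1.73 ± 0.17. ATPsynepsilonL, a related gene, had -0.64 ± 0.57 and did not pass.

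These falls held under every scaling of the arrays that was tried, with 35 to 41 respiratory subunits and 10 to 12 ATP synthase subunits falling over all alternatives. With scaling on the hybridisation spike-ins the medians were -0.97 and -1.10, while the median of all tested probe sets was 0.51. RNA integrity and labelling were gauged by control probe sets for the 3' and 5' ends of eIF-4a. Their signal ratio was 3.60 to 5.71 in controls, 2.75 to 3.52 with WGA and 2.83 to 3.56 in starvation. For GAPDH it was 1.97 to 2.92, 2.22 to 2.41 and 2.92 to 3.35, and for actin 1.44 to 2.36, 1.17 to 1.49 and 1.44 to 1.51, in the same order. eIF4A itself was among the common rises (0.76 ± 0.12). The part of these ratios in the group results was not tested.

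Neighbouring metabolic pathways and mitochondrial ribosomal proteins moved the same way, less uniformly. In the tricarboxylic acid cycle 8 of 13 members fell and none rose, with a median of -0.79. Under the authors' own scaling 5 fell, and under spike-in scaling 1. ScsbetaG, of succinyl-CoA synthetase, fell by 1.38 ± 0.19, and a further probe set gave -0.71. Of 16 fatty acid oxidation genes, 13 fell and none rose (median -0.92), and 6 fell in each treatment. The group median was -1.32 in WGA and -0.54 in starvation. Acox3, an acyl-CoA oxidase, fell by 1.67 ± 0.13, with -2.19 in WGA and -1.15 in starvation. yip2, a thiolase, fell by 1.32 ± 0.14. whd, the carnitine palmitoyltransferase of the outer membrane, went the other way without passing, at 1.16 ± 0.50. Mitochondrial ribosomal proteins had 22 falls and no rise among 64, with a median of -0.61 that was -0.06 with spike-in scaling, where 3 fell. The count rested on single arrays: it was 7 without control replicate 1, 14 without control replicate 2, 35 without control replicate 3, and 14 and 13 without WGA replicates 2 and 3.

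Glycolysis showed 5 falls among 8 tested enzymes, none of them 2-fold, with Pgk at -0.90 ± 0.14 and Eno at -0.77 ± 0.14. Only 3 fell without control replicate 1, and 0 with spike-in scaling. Hex-A, a hexokinase, was the single rise (1.22 ± 0.19), with 0.62 in WGA and 1.82 in starvation. In gluconeogenesis and glycerol phosphate metabolism 5 of 14 fell and 1 rose. Pepck1, phosphoenolpyruvate carboxykinase, read 9.73, 9.73 and 10.04 in controls, 6.89, 7.47 and 7.04 with WGA, and 8.43, 8.41 and 8.09 in starvation. The groups did not overlap, and the fall was 2.11 ± 0.15. PCB, pyruvate carboxylase, fell by 1.84 ± 0.19, and Gpdh1, glycerol-3-phosphate dehydrogenase, by 1.67 ± 0.18.

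Lipid synthesis and storage held more falls than rises. Of 24 members 9 fell and 2 rose. The median was -0.72 in WGA and -0.05 in starvation, and the pooled median of -0.35 turned to 0.22 with spike-in scaling, while the count of falls was 8 or 9 under every alternative. AcCoAS, acetyl-CoA synthetase, fell by 1.70 ± 0.19, ACC, acetyl-CoA carboxylase, by 1.12 ± 0.20, and Desat1, a stearoyl-CoA desaturase, by 1.29 ± 0.25. FASN1, fatty acid synthase, read 7.78, 7.62 and 8.58 in controls, 5.96, 6.23 and 5.90 with WGA, and 4.23, 3.98 and 6.58 in starvation. Starvation replicate 3 stood apart from its group but still below every control, and the fall was 2.52 ± 0.44. Agpat3, an acyltransferase that makes phosphatidate, read 8.58, 8.62 and 8.15 in controls, 6.02, 5.79 and 5.77 with WGA, and 5.83, 5.73 and 5.51 in starvation, a fall of 2.67 ± 0.16. Agpat4 fell by 1.93 ± 0.18 and Lsd-1, a perilipin of lipid droplets, by 2.12 ± 0.45. The rises were LpR2, a lipoprotein receptor (1.68 ± 0.20), and SREBP, a transcription factor known to activate fatty acid synthesis genes (0.71 ± 0.15).

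Transporters and acidification also fell more often than they rose. Among 18 nutrient transporters 6 fell and 2 rose, with a median of -0.53 that was 0.00 with spike-in scaling. After sbm the largest were MFS3 (-1.90 ± 0.23) and gb, genderblind (-1.53 ± 0.23), while acs rose by 1.40 ± 0.23. Of 20 subunits of the vacuolar ATPase, the proton pump of lysosomes and of acid-secreting cells, 12 fell and 1 rose, with a median of -0.61. Vha14-1 fell by 1.23 ± 0.11, Vha44 by 1.04 ± 0.15 and Vha16-1, of the membrane ring, by 0.95 ± 0.11. A further probe set of Vha16-1 gave -0.32. With spike-in scaling 6 subunits fell. In antioxidant defence 8 of 14 fell and 1 rose. Men, malic enzyme, fell by 1.83 ± 0.20, and the mitochondrial proteins Prx3 and Sod2 by 1.71 ± 0.23 and 1.36 ± 0.19. Cat, catalase, rose by 0.98 ± 0.11.

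**Figure D3:**
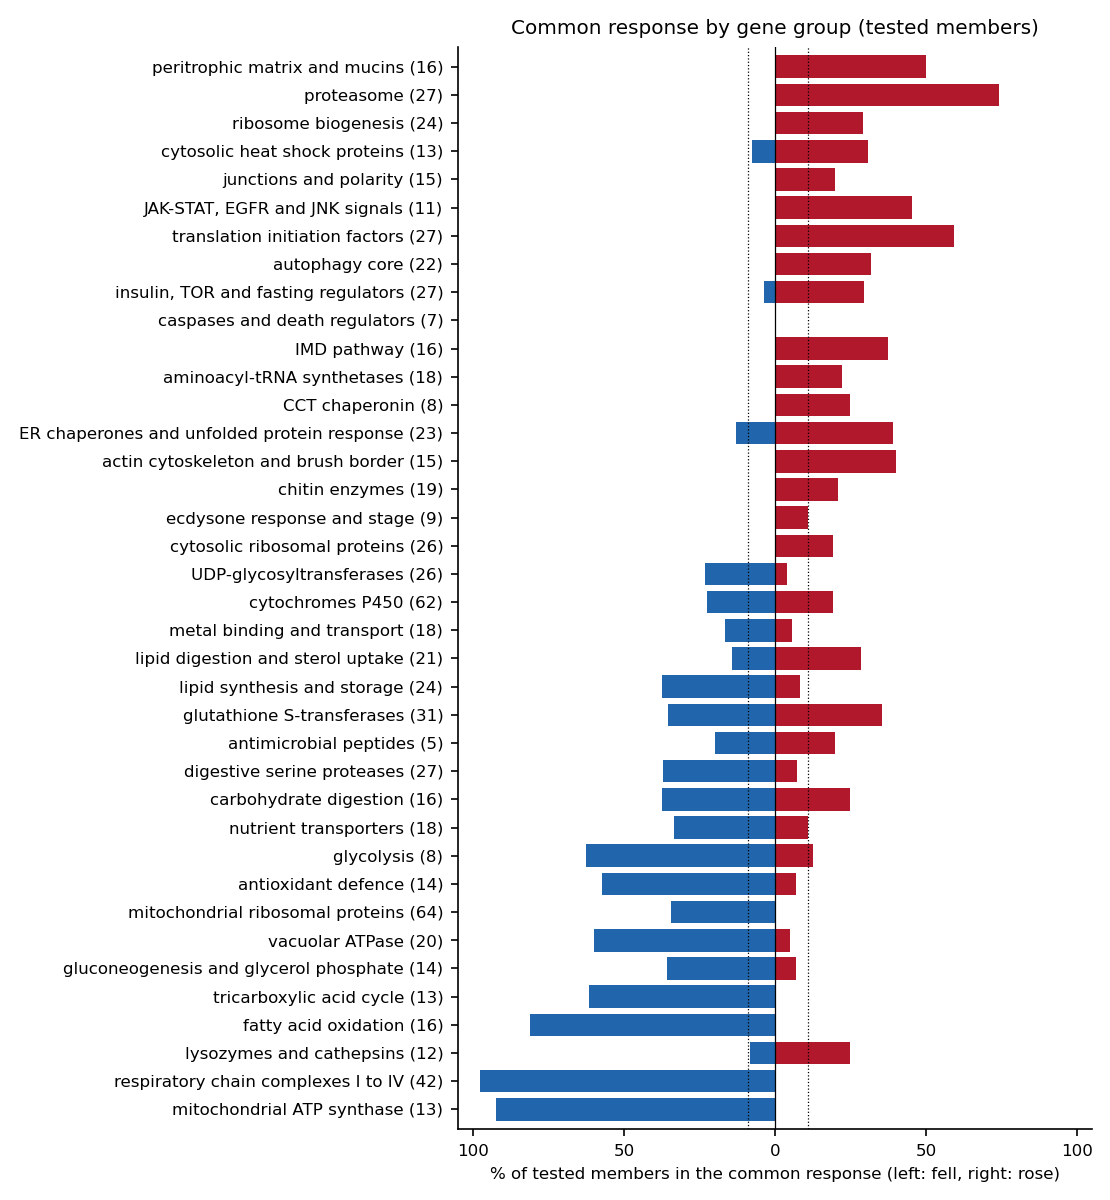
For each of 38 gene groups, bars give the percent of tested members (number in brackets) that rose in common (red, to the right) or fell (blue, to the left), ordered by median change. Dotted lines mark the shares over all tested probe sets, 10.8% and 9.04%; the respiratory chain and ATP synthase reach furthest left, and the proteasome and translation initiation factors furthest right.

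Factors of protein turnover and of the start of translation held many rises and no fall. Of 27 translation initiation factors 16 rose and none fell, 8 of them in each treatment, with a median of 0.52. Of the 13 tested subunits of eIF3, the complex that holds the small ribosomal subunit ready for mRNA, 12 were among them. eIF3m read 7.36, 7.77 and 8.0 in controls, 8.80, 8.79 and 8.65 with WGA, and 8.92, 8.56 and 8.62 in starvation. All treated arrays lay above all controls, and the rise was 1.02 ± 0.15, with a 95% interval of -0.33 to 0.42 for WGA minus starvation. eIF3c rose by 1.10 ± 0.23 and eIF3l by 1.01 ± 0.20, and eIF3k, at 0.36, did not pass. The count was 10 without a trend in the variance prior and 8 with the treated arrays fitted as 1 group. For 23 of the 27 factors the treatments' difference was bounded within 2-fold.

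Of 27 proteasome subunits, which degrade proteins tagged with ubiquitin, 20 rose and none fell, with a median of 0.73. Medians over members, against the control mean, were 0.85, 1.23 and 1.03 on the WGA arrays, -0.03, 0.38 and 0.79 in starvation, and 0.01, 0.02 and 0.06 in controls. Starvation replicate 1 thus stood at the level of the controls, and 7 of 27 subunits had all treated arrays above all controls. Changes were moderate, from 0.14 to 1.08, and the count was 11 with median centring, 13 without control replicate 2 and 8 with the treated arrays fitted as 1 group. Prosalpha2, of the core particle, read 8.05, 8.51 and 8.39 in controls, 9.7, 9.88 and 9.67 with WGA, and 8.70, 9.05 and 9.39 in starvation. The WGA arrays were highest, and starvation lay between. Prosalpha2 rose by 1.08 ± 0.16, and Rpn5, of the regulatory particle, by 1.02 ± 0.20. In 13 of the 27 subunits WGA was higher than starvation at an adjusted p under 0.05, and 7 rose in each treatment.

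Ribosome biogenesis had 7 rises and no fall among 24, with bys, bystin, at 1.52 ± 0.26 and pes at 1.47 ± 0.17, the latter with 2.60 in WGA and 0.34 in starvation. Aminoacyl-tRNA synthetases had 4 rises among 18, none of which passed in both treatments. Cytosolic ribosomal proteins had 5 rises among 26 tested, all under 2-fold, a count that ran from 1 with median centring to 13 with cyclic loess. Their median of 0.08 was -0.02 with median centring. In the endoplasmic reticulum list 9 of 23 rose and 3 fell. After Sil1 came CaBP1, a protein disulfide isomerase (1.47 ± 0.16), while Sec61gamma, of the translocon, fell by 0.93 ± 0.18. Cytosolic heat shock proteins had 4 rises and 1 fall among 13, with stv, a BAG-family co-chaperone, at 1.33 ± 0.30. The CCT chaperonin had 2 pooled rises among 8, CCT2 and CCT4, whose changes were 1.43 and 1.23 in WGA but 0.12 and 0.06 in starvation. A further probe set of CCT2 gave a pooled change of 0.29, against 0.78 for the named one. All 8 members were higher in WGA than in starvation at an adjusted p under 0.05, and the list's median was 0.95 in WGA and -0.33 in starvation.

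Autophagy genes had 7 rises and no fall among 22 (median 0.49). ref(2)P, the fly p62 that carries ubiquitinated cargo, read 6.02, 7.04 and 7.52 in controls, 9.59, 9.74 and 9.81 with WGA, and 8.28, 8.45 and 8.76 in starvation. The 3 groups were separate, with WGA highest, and the rise was 2.25 ± 0.25. Atg8a, the ubiquitin-like protein of the autophagosome membrane, rose by 1.63 ± 0.15, with 1.66 in WGA and 1.60 in starvation. Atg101 and Atg1, of the initiating kinase complex, rose by 1.63 ± 0.50 and 1.55 ± 0.46. Both had 1 low control, replicate 1, without which Atg1 was 0.72 (adjusted p = 0.0758) and Atg101 0.83 (adjusted p = 0.15). The count of rises was 3 without control replicate 1 or with the treated arrays fitted as 1 group, and 4 without control replicate 2, WGA replicate 2, WGA replicate 3 or starvation replicate 2.

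Among 27 regulators of insulin, TOR and fasting 8 rose and 1, sug, fell, with a median of 0.49. REPTOR-BP, the partner of the transcription factor REPTOR that acts when TOR activity is low, read 5.88, 5.94 and 6.23 in controls, 6.97, 7.11 and 6.97 with WGA and 7.45, 7.71 and 7.69 in starvation. All 3 groups were separate, and the rise was 1.30 ± 0.14. chico, the insulin receptor substrate, rose by 0.87 ± 0.21. REPTOR rose by 1.03 ± 0.32, but its change was 0.57 (adjusted p = 0.154) without control replicate 1. The group count was 4 without that array and 3 with the treated arrays fitted as 1 group. InR (1.11 ± 0.43) and foxo (0.77 ± 0.38) did not pass, and ImpL2 moved opposite ways (2.84 in WGA, -0.48 in starvation), so it was not in the common response.

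**Figure D4:**
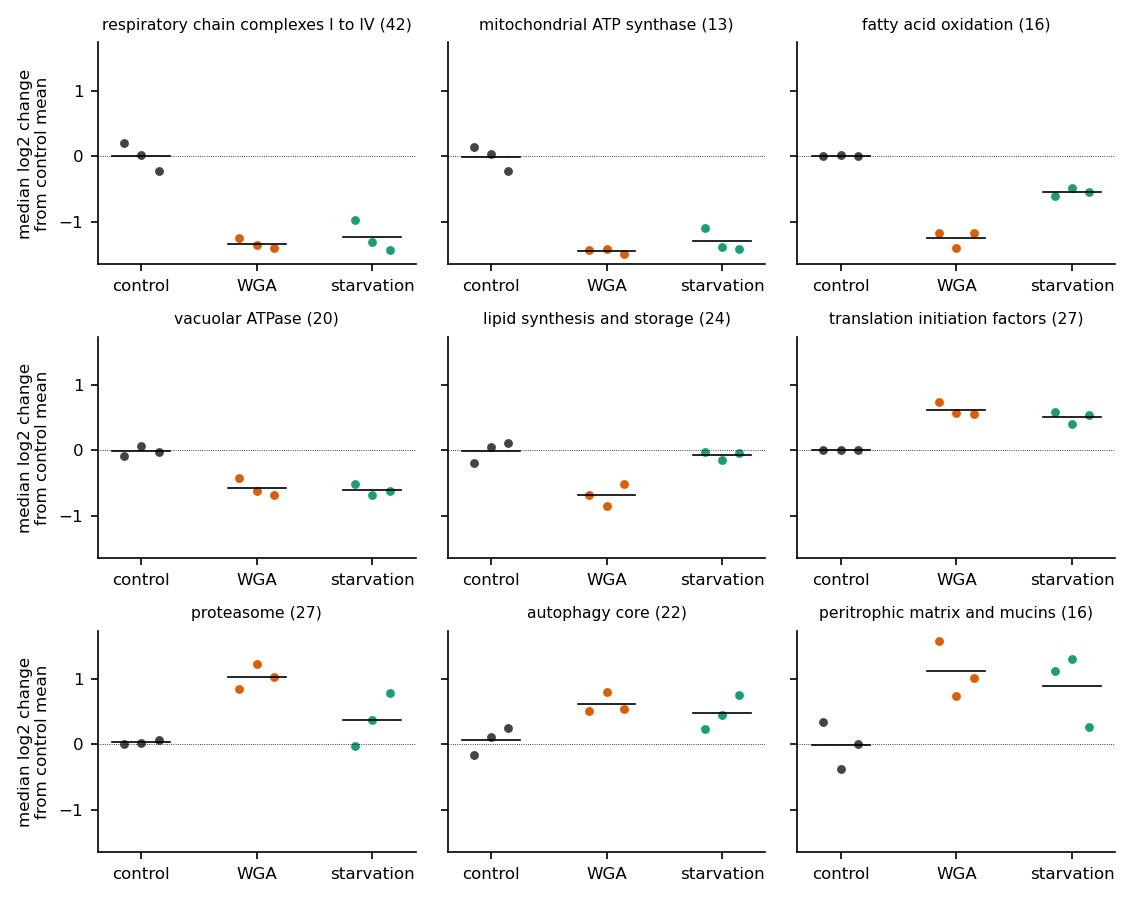
For 9 gene groups (tested members in brackets), each point is 1 array and shows the median over members of the log2 difference from the control mean; black lines are group means of the 3 arrays. Respiratory chain and ATP synthase medians lie near -1.3 in both treatments, while those of fatty acid oxidation, lipid synthesis and the proteasome lie further from 0 in WGA.

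The gut lining gave rises without falls. In the peritrophic matrix and mucin list 8 of 16 rose, 6 of them in each treatment, with a median of 0.87 and 7 to 10 rises over all alternatives. By the median over members, starvation replicate 3 (0.26) lay below control replicate 1 (0.34), and 3 of 16 members had all treated arrays above all controls. Muc26B, a mucin-related gene, read 4.86, 4.04 and 4.06 in controls, 8.33, 8.27 and 7.98 with WGA, and 7.45, 7.58 and 5.84 in starvation. Starvation replicate 3 was the lowest treated array, and the rise was 3.26 ± 0.33. obst-J, with chitin-binding domains, rose by 2.29 ± 0.45, Muc11A by 1.96 ± 0.32 and Peritrophin-15b, a peritrophic matrix protein, by 1.93 ± 0.40. In obst-J and Peritrophin-15b starvation replicate 3 (5.71 and 9.22) lay below control replicate 1 (6.19 and 9.80). obst-A had -1.13 ± 0.43 and did not pass. The chitin enzyme list, which also holds the chitinase-like Idgf genes, had 4 rises and no fall among 19. Among these rises Idgf2 (0.89 ± 0.27) was 0.85 (adjusted p = 0.0883) without control replicate 1. After the chitinases came Cda9, a chitin deacetylase, at 2.20 ± 0.52. Cda9 was 1.5 (adjusted p = 0.0601) without control replicate 2.

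Junction and polarity genes had 3 rises among 15, led by mesh, of the smooth septate junction (1.20 ± 0.15, a further probe set 1.77). Actin and brush border genes had 6 rises and no fall among 15, of which 1 passed in each treatment. The group median was 0.86 in WGA and -0.19 in starvation, and 11 of the 15 were higher in WGA than in starvation. The count of rises was 3 without control replicate 1, control replicate 2 or starvation replicate 3, and 3 with median centring. kst, the heavy beta spectrin, rose by 1.03 ± 0.20.

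Digestive enzymes did not move as a block. Among 27 serine proteases 10 fell and 2 rose, with 4 falls in each treatment, and 13 were lower in WGA than in starvation. With the treated arrays fitted as 1 group 4 fell and none rose. Jon99Ci fell by 1.48 ± 0.18, with -1.75 in WGA and -1.21 in starvation. thetaTry, a trypsin, read 8.29, 8.33 and 8.64 in controls, 3.47, 2.61 and 3.32 with WGA, and 7.69, 8.04 and 8.60 in starvation. Its pooled fall of 2.80 ± 0.23 came from the WGA arrays, since starvation had -0.31.

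In carbohydrate digestion 4 of 16 rose and 6 fell. The group median was -1.48 in WGA and 0.70 in starvation, and the pooled median of -0.47 was 0.06 with spike-in scaling. The lysosomal alpha-mannosidases LManV and LManVI fell by 2.03 ± 0.18 and 1.99 ± 0.16. A further probe set of LManV gave -1.03. Lipid digestion and sterol uptake had 6 rises and 3 falls among 21, with a median of -0.25 that was 0.07 with spike-in scaling. CG8093, a lipase of the Lip3 family, read 8.97, 8.77 and 7.49 in controls, 11.31, 11.28 and 11.43 with WGA, and 10.67, 10.86 and 11.23 in starvation, a rise of 2.72 ± 0.25. CG6271, a pancreatic-type lipase, rose by 2.61 ± 0.26, mostly in starvation (4.46, against 0.75 in WGA). Npc2c, of a family of sterol-binding proteins, fell by 2.45 ± 0.22, mostly in WGA.

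Lysozymes and cathepsins went separate ways. The cysteine cathepsins CtsL1 and CtsF rose by 1.48 ± 0.18 and 1.72 ± 0.29. CtsL1 read 8.76, 8.82 and 9.10 in controls, 10.27, 10.74 and 10.42 with WGA and 9.80, 10.31 and 10.73 in starvation. CtsB, at 0.43 ± 0.14, passed more narrowly: without control replicate 1 it was 0.33 (adjusted p = 0.167). Of the 12 members the single fall was LysS, and 1 array group set it: WGA arrays read 6.25, 6.56 and 6.5, while controls and starvation lay between 12.04 and 12.27. Its starvation change was -0.14. LysB, LysC, LysD and LysE had the same pattern, with -2.91 to -4.38 in WGA. They were left out by the same-way rule, since their starvation changes were 0.10 to 0.21. How far the probe sets of these closely related lysozymes share signal was not tested.

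Detoxification families held both rises and falls. Of 62 cytochromes P450, 12 rose and 14 fell (median -0.04, with -0.29 in WGA and 0.10 in starvation), with Cyp6a2 at -2.57 ± 0.20 and nearly equal changes of -2.58 and -2.56 in WGA and starvation. Of 31 glutathione S-transferases 11 rose and 11 fell, with a median of -0.36 that was 0.18 with spike-in scaling. The median was 0.42 in WGA and -0.35 in starvation, and 16 members were higher and 3 lower in WGA than in starvation. The delta class supplied the largest rises. GstD9 read 5.67, 5.73 and 5.27 in controls, 9.17, 9.27 and 8.77 with WGA, and 8.26, 7.79 and 7.19 in starvation, a rise of 2.85 ± 0.21. GstD10 rose by 2.24 ± 0.16. In the epsilon class, GstE7 and GstE8 fell by 2.15 ± 0.35 and 2.11 ± 0.20. Members of this family are close copies of each other, and how far their probe sets share signal was not tested. Among 26 UDP-glycosyltransferases 6 fell and 1 rose, led by Ugt37B1 (-3.22 ± 0.26). Metal binding and transport had 3 falls and 1 rise among 18, with Ctr1B, a copper importer, at -1.87 ± 0.21.

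Immune and stress signalling genes held rises and few falls. In the IMD pathway, which senses bacterial peptidoglycan in the fly gut, 6 of 16 rose and none fell (median 0.44). Rel, its NF-kappaB factor, read 4.63, 4.78 and 5.56 in controls, 7.23, 7.27 and 7.12 with WGA, and 6.73, 6.42 and 6.47 in starvation. The groups were separate, and Rel rose by 1.88 ± 0.20. The recognition proteins PGRP-LA and PGRP-LE rose by 1.44 ± 0.25 and 0.98 ± 0.17, and pirk, an inhibitor of the pathway, by 0.81 ± 0.22. Of 5 tested antimicrobial peptide genes Drs rose and AttD fell, by 1.96 ± 0.46. Of 11 JAK-STAT, EGFR and JNK genes 5 rose and none fell, with puc, a JNK phosphatase and target, at 1.34 ± 0.25 and kay, the fly Fos, at 1.15 ± 0.28. That count was 3 without control replicate 1 or 2, or without any single WGA array. None of 7 caspases and death regulators passed. Of 9 ecdysone response and stage genes 1 rose, MsrA (0.75 ± 0.24), with a median of 0.09, and no rise remained without control replicate 1 or 2, any WGA array, or starvation replicate 2 or 3.

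Markers of cell types were read on the same arrays. Of 13 midgut epithelium markers 6 rose and 2 fell. Their summed normalised signal, on the linear scale, was 4570 to 6310 in controls, 8290 to 8900 with WGA and 5720 to 7800 in starvation. Bright members weigh most in such a sum, among them Peritrophin-15a (control mean 11.51), which had 0.51 ± 0.23 and did not pass. The median change of the 13 markers was 0.68, with 10 above 0 and 3 below. nub, a factor of absorptive cells, rose by 1.30 ± 0.17 (a further probe set 0.60), while the protease gene Jon99Fi fell by 1.74 ± 0.17. Malpighian tubule markers, of the renal organ that joins the gut behind the midgut, summed to 508 to 602 in controls, 321 to 396 with WGA and 276 to 407 in starvation. Of 11 of them 3 fell and 1 rose. The vitamin transporter Smvt had -2.66 ± 0.23 and the chloride channel ClC-a -1.59 ± 0.35 (a further probe set -0.90). The rise was cv-c (1.69 ± 0.51), with a control mean below the filter level and 0.37 and -0.18 on other probe sets. The median change of the 11 markers was -0.09, with 5 above 0 and 6 below. Their part in the falls of transporters and detoxification genes was not tested.

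Visceral muscle markers summed to 5330 to 6120, 4060 to 6400 and 2670 to 3280 in controls, WGA and starvation, with 2 falls among 12. A sum weighs bright members most. The median change was 0.12 (0.14 in WGA and -0.20 in starvation), with 7 members above 0 and 5 below. The bright Argk1, arginine kinase, fell by 1.53 ± 0.13, from a control mean of 11.16 to 10.23 with WGA and 9.05 in starvation. Its other probe set gave -0.31. Enteroendocrine markers summed to 209 to 257, 149 to 161 and 187 to 203, with 1 rise and 2 falls among 9. Their median change was -0.25, with 2 above 0 and 7 below. The falls, CCHa2 (-0.74 ± 0.24) and AstC (-0.62 ± 0.17), passed in WGA but not in starvation, and treated arrays overlapped controls. The rise, ITP (1.23 ± 0.33), had a control mean below the filter level. Progenitor markers had 1 rise among 5, esg (1.40 ± 0.46), which was 0.95 (adjusted p = 0.198) without control replicate 1. Of 9 fat body markers 1 fell, and none of 4 salivary gland, 8 blood cell or 6 tracheal markers passed. Summed signals of the last 4 lists overlapped between controls and treated arrays, except for blood cell markers in starvation. Those summed to 165 to 237, against 148 to 162 in controls, with a median starvation change of 0.08.

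Size differences within the common response leaned towards WGA. Of the 498 members that differed between treatments, WGA had the larger rise in 207 of 269 and the larger fall in 180 of 229. Median changes were 1.15 in WGA and 1.02 in starvation among the rises, and -1.21 and -1.03 among the falls. In the core, WGA had the larger change in 525 and starvation in 394. Whether this lean is particular to the common response or holds over all tested probe sets was not tested. The same-way rule admits members that hardly moved in 1 treatment. Just inside it were Ir68b (-2.26 in WGA, -0.00204 in starvation) and CG7860 (-1.78 and -0.00211). Just outside were CG13041 (-1.29 and 0.00436) and Alp5 (-0.92 and 0.019).

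The balance of rises and falls depended on how the arrays were scaled. Quantile normalisation put 54.3% of common calls among the rises, cyclic loess 51.4% and median centring 51.9%. With the deposited scaling the common response had 1463 rises and 489 falls (74.9% rises), and the median of all tested probe sets was 0.28. With spike-in scaling it had 2527 rises and 361 falls (87.5%), and that median was 0.51. Of the 1041 rises 1039 were also rises with spike-in scaling, while of the 875 falls 361 were also falls. That scaling shifted most probe sets upwards, so the rises it kept are no check on them. Changes are therefore relative to the bulk of transcripts, and whether total mRNA changed cannot be read from them.

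**Figure D5:**
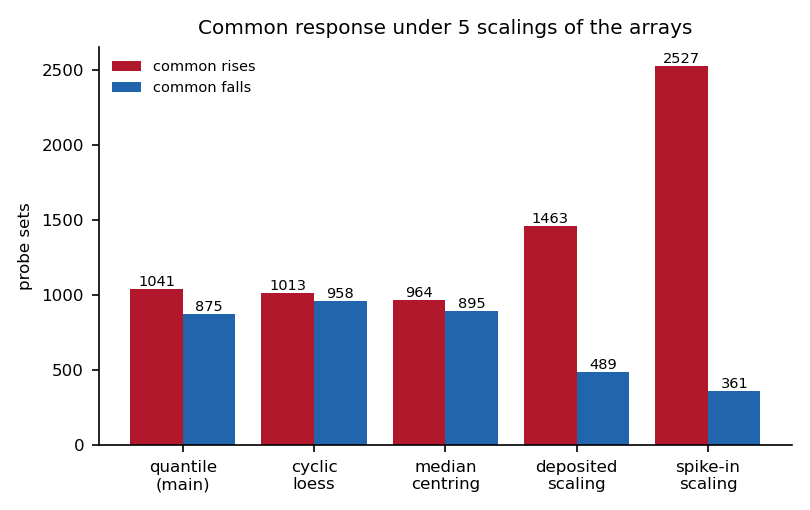
Number of common rises (red) and common falls (blue) among 9675 tested probe sets under each of 5 scalings of the arrays; the vertical axis starts at 0. Rises and falls are near balance under quantile, cyclic loess and median centring, and rises exceed falls under the authors' own scaling and under spike-in scaling.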

How the data were processed

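Midgut RNA of 9 pools was hybridised to Affymetrix fly arrays. The authors deposited a table of linear signal intensity values, 1 per probe set and array, made with GCOS per the submitters' processing notes; the sources used here do not give its version and scaling. Values lay between 0.052 and 12490. Arrays were grouped by their labels, and all columns were mapped.

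From these, 44 control probe sets were left out, an offset of 1.72 (the 20th percentile) was added, and log2 values were quantile normalised. Probe sets with at least 3 arrays above the 40th percentile (signal 5.18) were tested. limma 3.58.1 in R 4.3.3 (lmFit, eBayes with a trend) fitted 3 group means with the contrasts treated (mean of both treatments) minus control, each treatment minus control, and WGA minus starvation, with Benjamini-Hochberg adjustment. p-values measure the spread between pools. The annotation names 1 gene for 12444 probe sets, more than 1 for 327 and no gene for 1195. The brightest probe set stood for a gene in the lists, and listed genes without one were not analysed here.

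Genes named are the 12 rises and 12 falls with the largest smaller change, passing in each treatment with no overlap between treated and control arrays, up to 4 per list, 4 per side that differed most between treatments, and 2 on either side of the same-way rule. Of these, 1 of the 12 rises is not reported here. Other list members were named after their values were seen. The contrast, the 38 role lists and 9 marker lists were chosen with earlier results of these data known. The fit was tested on simulated data. Alternatives covered scaling, offset, filter, variance prior, array weights, a replicate block, treated arrays as 1 group, a minimum change and each array left out.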

Additional observations from a re-analysis of the deposited data

Results flagged for a closer look

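Members of the common response that differed clearly between treatments, by the limma contrast of WGA minus starvation, are given here as log2 differences. By the rule the changes in WGA and in starvation had the same sign in each, but very different sizes. WGA stood above starvation for GstD2 (4.19 ± 0.25, adjusted p = 1.45e-07), GstD3 (3.36 ± 0.21, adjusted p = 2.69e-07), CG5550 (3.25 ± 0.20, adjusted p = 2.69e-07) and CG7381 (3.0 ± 0.24, adjusted p = 2.93e-06). A further probe set of CG7381 gave a pooled change of 0.06, against 1.62 for the named one. GstD2 read 12.46, 12.38 and 12.04 with WGA against 6.74 to 7.85 in controls and 7.88 to 8.37 in starvation. WGA stood below starvation for LysS (-5.65 ± 0.12, adjusted p = 6.09e-12), thetaTry (-4.98 ± 0.26, adjusted p = 4.62e-08), Alp7 (-3.89 ± 0.60, adjusted p = 0.000627) and Scp2 (-3.73 ± 0.45, adjusted p = 7.79e-05). In these 8 genes the starvation change was 0.68 or less in size. None of them passed in starvation (limma adjusted p from 0.0856 for GstD2 to 0.873 for Scp2), so only its sign placed them in the common response. When the 6 treated arrays were fitted as 1 group, so that the spread held the difference between treatments, none of the 8 passed (adjusted p from 0.116 for GstD2 to 0.224 for Scp2).

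Of the 24 genes with the largest common changes, 3 differed between treatments. WGA lay below starvation for CG18585 (-0.94 ± 0.20, adjusted p = 0.00578) and above it for sug (2.42 ± 0.33, adjusted p = 0.000252) and Phyhd1 (1.66 ± 0.33, adjusted p = 0.00444). These 3 passed the pooled test when the treated arrays were fitted as 1 group too. Groups of 3 arrays are too small for a test of single outlying arrays, and none was made.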

How the results depend on the processing

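Among 22 alternative settings, the counts of common rises (1041), common falls (875), the core passing in each treatment (480 rises, 439 falls) and common members that differ between WGA and starvation (498) stayed within 1.5 times except as follows. With the deposited scaling common falls were 489 and common falls called in each treatment 248. With spike-in scaling common rises were 2527, common falls 361, common rises called in each treatment 1074 and common falls called in each treatment 174. Without a trend in the variance prior, common rises called in each treatment were 316 and common members that differ between WGA and starvation 278. With treated and control as 2 groups, common rises were 615, common falls 536 and common members that differ between WGA and starvation 206. A pooled change of at least 1 left 584 common rises, 521 common falls and 285 that differ between treatments. Leaving out each array in turn gave 819 to 1005 common rises, 677 to 896 common falls, 334 to 499 and 328 to 433 in the core, and 337 to 509 that differ. Of 3673 recomputed values of 175 named genes, 3435 kept direction and call and 237 lost the call, in 60 genes. The reversed one was Adgf-A, at 0.01 with spike-in scaling (adjusted p = 0.968). Lists were also recomputed with the median probe set per gene. Of 2162 recomputed list counts 291 moved by over 1.5 times; the cause was not tested. No label says that replicate numbers pair the arrays. The r of deviations was -0.0381 to 0.0962 for the same number and -0.1301 to 0.0593 otherwise. With so few arrays these values cannot exclude pairing. A replicate block gave 1134 common rises and 944 common falls. Arrays number 3 per group, and signals near the filter level limit the folds of dim probe sets.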
